A study of Mus musculus with 4 samples.

Results

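Of the 13977 PRDM6 ChIP-Seq peaks in the deposited list, 773 (5.53%) carried an annotation as an exon or as an untranslated region (UTR). They were chosen by that annotation alone, and comprised 573 exon peaks (4.10% of all peaks, 95% Wilson interval 3.78% to 4.44%), 175 3′ UTR peaks (1.25%, 1.08% to 1.45%) and 25 5′ UTR peaks (0.179%, 0.121% to 0.264%). The cells were primary smooth muscle cells (SMCs) from the outflow tract of late-gestation mouse embryos, infected with a lentivirus that overexpressed FLAG-tagged PRDM6, so binding was that of an overexpressed protein. Chromatin was digested with micrococcal nuclease, sonicated and immunoprecipitated with a FLAG antibody in 2 replicates, and 2 Input samples of the same infected cells served as controls. The study describes the replicates both as independent and as separate immunoprecipitations from the same sample, so whether their spread is biological or technical cannot be told apart, and no cells without the transgene were part of the series. The list gave the −log10 p of each peak over Input in each replicate, called first-listed and second-listed, and the lower of both was the strength of the matched peak, which held in 773 of 773 members. No read counts were part of the list, so depth was unknown. Neither were expression values, so the identity of the cells could not be checked against marker genes, and of 18 markers looked up only Tek, an endothelial receptor, held an exon or UTR peak.

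PRDM6 belongs to the PR domain family of zinc finger proteins and is enriched in SMCs. Exons are the parts of a gene kept in the mature RNA, among them the coding sequence, and the UTRs flank the coding sequence and carry signals that control the translation and stability of the RNA. ChIP-Seq recovers DNA held by a protein directly or through other molecules, so a peak in an exon or a UTR places the protein at that region of the genome and does not measure binding to the mature RNA. AP-1 (the FOS and JUN family) and TEAD factors bind enhancers in many cell types, SMCs included, and both have short, well-known DNA motifs.

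The motif matches nearest to the summits of the strongest members show what these centres looked like in DNA. The AP-1 motif was searched as TGACTCA or TGAGTCA and the TEAD motif as AGGAATGC, AGGAATGT, GGGAATGC or GGGAATGT, on both strands, within 100 bp of the summit. The letters of the AP-1 forms are each other's reverse complement, and no AP-1 form contains a TEAD form. In all 13977 peaks, windows of the same length held an AP-1 match in 14.3% and a TEAD match in 7.45%. The lines below give the strongest members with a match in each class, read 5′ to 3′ on the + strand of GRCm38 (mm10), with the motif in capitals.
Akap7 exon, AP-1, chr10:25271885-25271913: tctttgcagagTGAGTCActgactgagtg
Gm29346 exon, AP-1, chr1:120757481-120757509: ttgccaacatgTGAGTCAgaaagagctgt
Gm48957 exon, AP-1, chr15:25460170-25460198: atggctaatttTGACTCAcagttttggca
Ppp1r12b exon, TEAD, chr1:134902331-134902358: gaagcagaggAGGAATGTgcatcaaacc
Hacd4 3′ UTR, TEAD, chr4:88412562-88412589: ctgttgcccaAGGAATGCacaaatctgc
Nfatc2 3′ UTR, AP-1, chr2:168518285-168518313: gctgccctcggTGACTCAtcggttaaaag
Tmem44 3′ UTR, AP-1, chr16:30518847-30518875: tcaagtatgccTGACTCAggcctctggcg
Rftn2 3′ UTR, TEAD, chr1:55202113-55202140: ggcctgaggcAGGAATGCctgagagaga
Peak1 5′ UTR, AP-1, chr9:56374599-56374627: gtctggtgagaTGAGTCAgagcttgtgct
Jarid2 5′ UTR, TEAD, chr13:44823180-44823207: aatacttgttAGGAATGTgacatgcaac

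The matches sat 6 bp (Akap7), 9 bp (Peak1), 11 bp (Jarid2), 15 bp (Hacd4), 17 bp (Tmem44), 19 bp (Rftn2), 35 bp (Gm29346), 45 bp (Nfatc2), 47 bp (Gm48957) and 50 bp (Ppp1r12b) from the summit. Those in Hacd4, Nfatc2 and Gm48957 lay inside the exon or UTR that gave the peak its class. The match in Rftn2 lay in coding sequence, and the others lay in the peak but outside the annotated exon or UTR. A match describes the letters at a summit and was not tested as a binding site.

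The exon class was mostly not coding sequence. When the transcript named for each exon peak was looked up in GENCODE M21, 572 of 573 were found by their full identifier. Of the 573 peaks, 304 lay on exons of non-coding RNA genes, 172 overlapped coding sequence, 64 lay on non-coding exons of protein-coding genes and 33 lay on pseudogenes. By gene type, 234 peaks (40.8%) were in protein-coding genes, 139 (24.3%) in long intergenic non-coding RNA genes, 64 (11.2%) in genes of the provisional type TEC and 56 (9.77%) in antisense genes. Overlap with an antisense or intergenic RNA gene says where the DNA lies and does not say that the gene was transcribed in these cells.

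**Figure D1:**
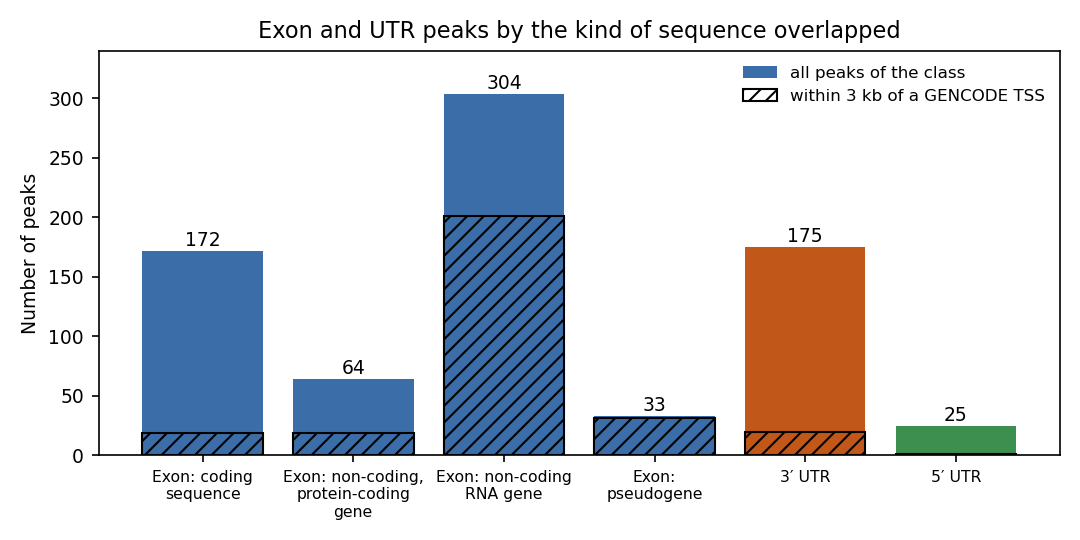
Number of exon peaks by the kind of sequence overlapped (blue) and of 3′ UTR (orange) and 5′ UTR (green) peaks; the hatched part of each bar is the peaks within 3 kb of a GENCODE TSS. Exons of non-coding RNA genes held the most peaks, 304, and 201 of these were within 3 kb of a TSS.

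Many exon peaks lay close to a transcription start site (TSS) although the annotation placed promoters ahead of exons. Within 3 kb of a GENCODE TSS were 270 exon peaks (47.1%), 20 3′ UTR peaks (11.4%) and 1 5′ UTR peak (4.0%), beside 5.74% of intronic peaks. Among exon peaks the share was 66.1% on non-coding RNA genes and 93.9% on pseudogenes, and 11% on coding sequence. Of the 270 peaks, 248 (91.9%) named a transcript to which the annotation gave no gene number, and 22 named one with a gene number. Thus the exon class included peaks near the TSS of the transcript they named as well as peaks over the coding parts of genes.

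The gene assigned to a peak was often not the gene whose exon or UTR it overlapped, here called the host gene. Assigned and host gene were the same for 239 exon peaks (41.7%), 117 3′ UTR peaks (66.9%) and 22 5′ UTR peaks (88.0%), in all 378 of 773. On coding sequence the share was 80.8%, and on exons of non-coding RNA genes it was 12.2%. Hacd4 held the strongest member in its 3′ UTR, but the peak was assigned to Focad. Likewise the Fbn1 peak was assigned to Dut, the Itch peak to Dynlrb1 and the Layn peak to Btg4. Genes are named below by their host, and 3 3′ UTR peaks had no matching UTR in GENCODE M21, assigned to Tatdn1, Zfp536 and Cep126.

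The 3 classes differed in how much of the peak lay in the annotated region. For exon peaks, the exon of the named transcript with the largest overlap was taken, here called the named exon. Its number was that of the annotation in 558 of 573 peaks. It held a median of 25% of the peak (quartiles 11.1% to 59.8%) and was 219 bp long in the median. A 3′ UTR held 98.9% (28.9% to 100%) at a median length of 1906 bp, and the 5′ UTR part of an exon 5.65% (3.67% to 12.5%) at 59.0 bp. The summit lay in the named exon for 245 of 573 exon peaks (42.8%, 38.8% to 46.8%), in the 3′ UTR for 120 of 175 (68.6%, 61.4% to 75%) and in the 5′ UTR for 3 of 25 (12%, 4.17% to 30.0%). Wholly inside lay 99 exon peaks (17.3%), 86 3′ UTR peaks (49.1%) and no 5′ UTR peak (0 of 25, Wilson upper limit 13.3%). At the other end, the peak at Usp40 shared 2 bp with a 3′ UTR and those at Mpv17l and Bicc1 shared 2 bp and 3 bp with a 5′ UTR. The classes are therefore classes of overlap. Of the 25 5′ UTR peaks, 22 had their summit outside the 5′ UTR part taken for them in GENCODE. That part could be the untranslated end of a coding exon. Of the 25 peaks, 17 overlapped coding sequence, and 10 had their summit in a GENCODE exon of any kind.

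**Figure D2:**
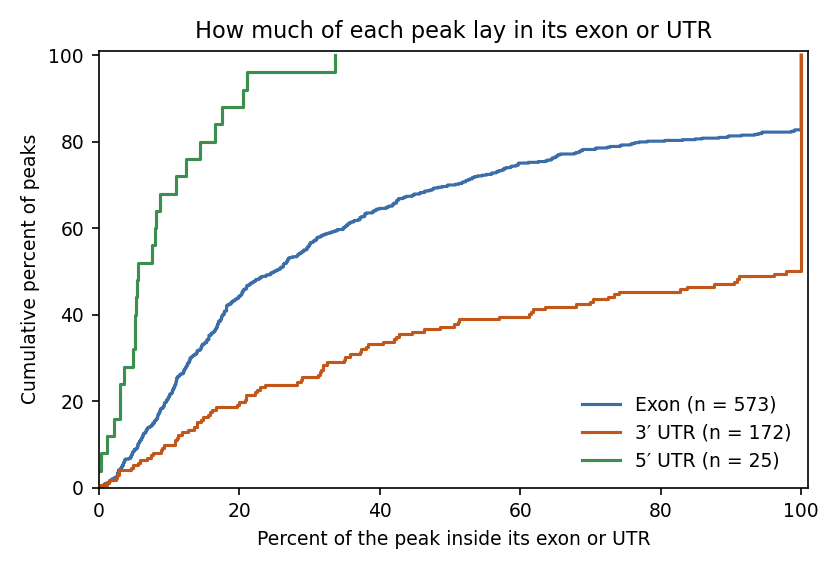
Cumulative percent of peaks (y axis) against the percent of the peak that lay inside its exon or UTR (x axis), for 573 exon, 172 matched 3′ UTR and 25 5′ UTR peaks. The 3′ UTR curve rises at 100%, where 86 peaks were wholly inside, and all 5′ UTR peaks are to the left.

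Coding exons held their peaks loosely. On the 172 exon peaks that overlapped coding sequence, the exon was 124 bp long in the median and held 15.5% of the peak, 44 summits (25.6%, 19.6% to 32.6%) lay in the named exon, and 5 peaks were wholly inside. Of the 162 with a protein-coding transcript, 155 (95.7%) met an internal exon, 6 the last and 1 the first. Non-coding exons of protein-coding genes were longer, 1821 bp in the median, and held 41 of 64 summits (64.1%).

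Summits were also counted against the length of sequence, away from TSSs, for all peaks of the list. More than 3 kb from every GENCODE TSS, coding sequence held 64 summits in 18.2 Mb, or 3.52 per Mb (exact Poisson 95% interval 2.71 to 4.50), and 3′ UTRs of protein-coding transcripts held 104 in 23.0 Mb, or 4.52 per Mb (3.69 to 5.48). Introns held 5.77 per Mb (5.61 to 5.93), other exons 6.57 (5.33 to 8.01) and intergenic sequence 4.09 (3.98 to 4.21). For 5′ UTRs, 2 summits in 0.300 Mb gave 6.66 per Mb with an interval of 0.806 to 24. The intervals of coding sequence and of 3′ UTRs lay below that of introns, without a test. These intervals cover counting error only, and differences in how well reads can be placed on each kind of sequence were not tested.

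Summits in 3′ UTRs were spread along them. Of the 120 summits inside a 3′ UTR, 55 lay in the first part, up to the middle of the UTR exon hit, and 65 beyond the middle, which was not tested. The median summit was 1357 bp (quartiles 597 bp to 2292 bp) past the upstream end of that UTR exon, or 54.3% of the way along it. The class also held 30 peaks (17.1%) whose 3′ UTR belongs to a transcript of the type nonsense-mediated decay, in which an early stop codon turns inner exons into 3′ UTR. In those the UTR was 130 bp long in the median and held 13.1% of the peak, against 2404 bp and 100% in the 141 peaks of protein-coding transcripts. The summit lay in the UTR for 10 of 30 of the former and 109 of 141 (77.3%) of the latter. Tmem44, Ext1, Arid5b and Sbno2, named below, were of this kind, and their UTRs held 2.52%, 5.82%, 14% and 100% of the peak.

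Strength ranged from 3.07 to 16.85 on the −log10 p scale over the exon peaks, from 3.09 to 23.20 over the 3′ UTR peaks and from 3.21 to 12.03 over the 5′ UTR peaks. The medians were 5.84, 5.46 and 5.42, beside 5.53 in 5016 intronic peaks. The share above the median of all peaks was 54.6% in exons against 49.8% in introns, with an adjusted p = 0.0876 (two-sided Fisher's exact test, Benjamini-Hochberg over 15 tests of 3 classes and 5 measures). With the second-listed replicate alone that comparison passed (difference in medians 0.53, adjusted p = 0.00428, exact), and with the first-listed alone it did not (0.00, adjusted p = 0.125). The shares in 3′ UTRs (49.1%) and 5′ UTRs (48%) gave adjusted p-values of 0.941 and 1.00 by the same exact test. All p-values over peaks cover counting error only, since peaks are not replicates of the experiment.

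The replicates ranked the members loosely. Spearman's rho between the first-listed and second-listed −log10 p was 0.256 over exon peaks, 0.272 over 3′ UTR peaks and 0.269 over 5′ UTR peaks, beside 0.263 over all peaks; these are descriptions over peaks of the same libraries, truncated by the threshold of the peak calls. The first-listed value was the higher in 404 members and the second-listed in 369. They parted far at Lamb1, a laminin chain of the basement membrane, with 5.42 in the first-listed replicate and 26.63 in the second-listed. At Blmh, a 3′ UTR peak, they gave 10.61 and 32.58.

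**Figure D3:**
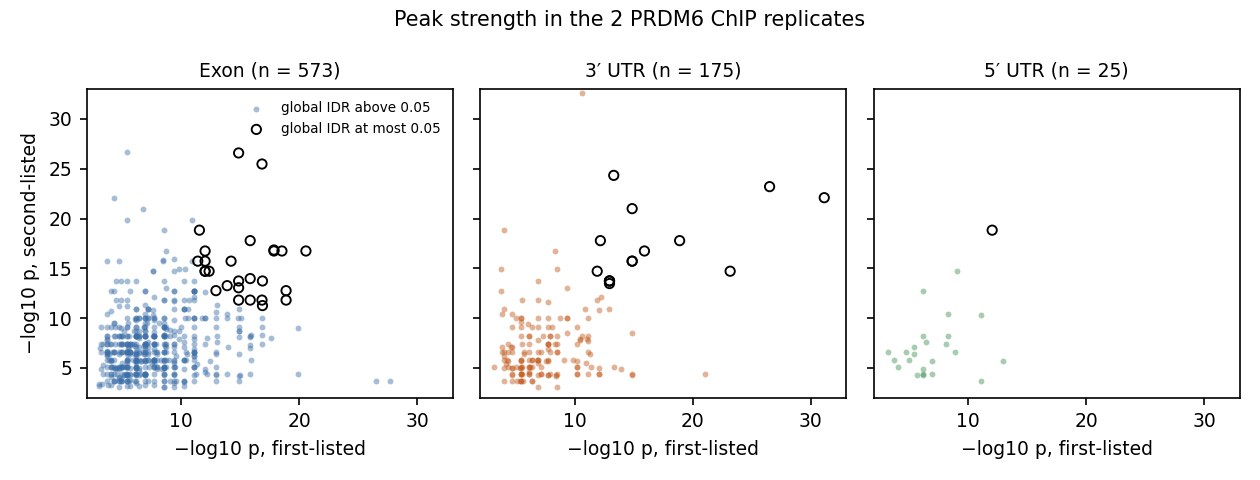
−log10 p of each exon, 3′ UTR and 5′ UTR peak in the first-listed (x axis) and second-listed (y axis) PRDM6 ChIP replicate; open circles mark a global IDR of at most 0.05. The 27 marked exon peaks, 15 3′ UTR peaks and 1 5′ UTR peak are high in both replicates, and Hacd4 and Nfatc2 stand at the upper right of the 3′ UTR panel.

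The 3′ UTR class had a higher share of peaks within a strict reproducibility limit than introns did. Over the whole classes, Spearman's rho between the replicates was 0.272 in 3′ UTRs and 0.257 in introns, which was not tested. The share of 3′ UTR peaks above the upper quartile of strength did not pass against introns (adjusted p = 0.229, Fisher's exact test). The global irreproducible discovery rate (IDR) gives the expected share of irreproducible peaks among those ranked as high or higher, and 465 of all 13977 peaks (3.33%) had a value of at most 0.05. Among 3′ UTR peaks 15 of 175 did (8.57%, Wilson interval 5.26% to 13.7%), against 146 of 5016 intronic peaks (2.91%, 2.48% to 3.41%), a difference of 5.66 percentage points that passed the test (adjusted p = 0.00227, Fisher's exact test). It also passed against distal intergenic peaks (3.96%, adjusted p = 0.0438) and against promoter peaks (2.32%, adjusted p = 2.05e-04), by the same exact test. The share was 7.09% (10 of 141) on protein-coding transcripts and 13.3% (4 of 30) on transcripts of nonsense-mediated decay. It was 12.1% (7 of 58) in 3′ UTR peaks that overlapped coding sequence and 6.84% (8 of 117) in the others. These differences were not tested. Exon peaks reached 4.71% (27 of 573, 3.26% to 6.77%), with an adjusted p = 0.0876 against introns, and 5′ UTR peaks 4.0% (1 of 25), with an adjusted p = 0.929 (both exact).

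Width was not independent of the class, since any overlap with an exon placed a peak ahead of introns, so widths are given as a description. The median width was 682 bp in exons, 662 bp in 3′ UTRs and 727 bp in 5′ UTRs, beside 576 bp in introns and 600 bp in all peaks. The share wider than 600 bp was 57.9% in exons, 56.6% in 3′ UTRs and 60.0% in 5′ UTRs, beside 47.4% in introns. The exon median exceeded the intronic one by 27.0 bp within the stronger part of the list, by 45 bp over exon peaks with their summit in an exon, and by 290 bp among peaks within the IDR limit. Among peaks wider than 600 bp, 3′ UTR peaks had the higher share within the IDR limit, by 7.88 percentage points over introns (adjusted p = 0.00824, exact). That comparison was added after the data were seen.

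**Figure D4:**
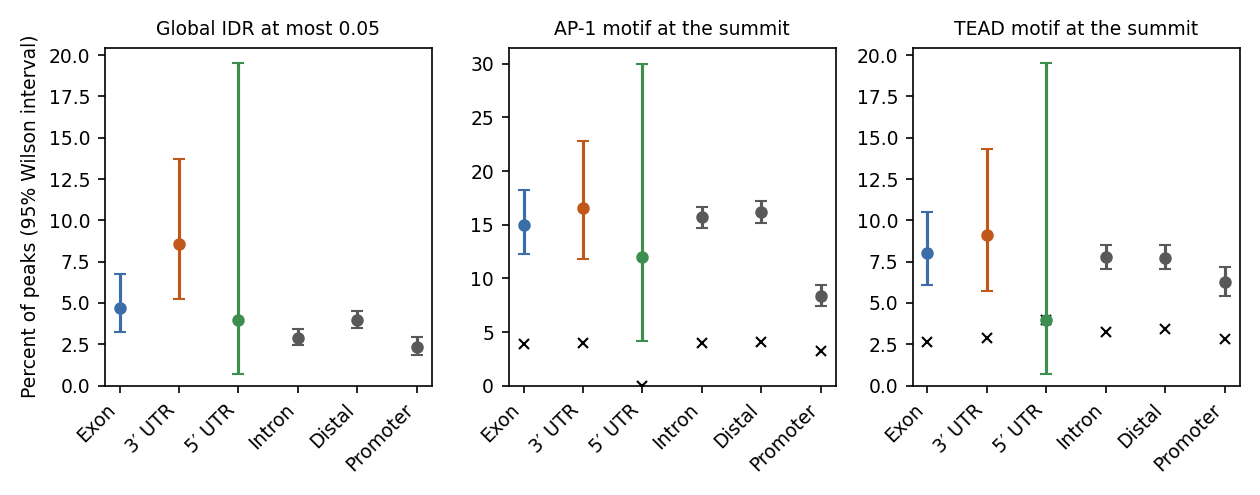
Percent of peaks whose global IDR was 0.05 or less, with an AP-1 and with a TEAD match at most 100 bp from the summit, by class, with 95% Wilson intervals; crosses give the motif share in flanks 1000 bp away. The 3′ UTR class has 8.57% of peaks within the IDR limit beside 2.91% in introns, and the motif shares of exons, 3′ UTRs, introns and distal peaks overlap.

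The strongest 3′ UTR peak lay wholly in the 3′ UTR of Hacd4, a dehydratase of very long chain fatty acid synthesis, at chr4:88411909-88413060. Its −log10 p was 26.51 in the first-listed and 23.20 in the second-listed replicate, with a global IDR of 3.02e-04. Nfatc2, a transcription factor activated by calcineurin, followed at chr2:168517810-168518839 with 31.14 and 22.09 (global IDR 1.78e-04), and 61.8% of that peak lay in the UTR. Both summits lay in their UTR, and a second Hacd4 peak, in another 3′ UTR of the gene, had only 3.21 and 5.10.

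The other reproducible 3′ UTR peaks had strengths from 11.91 to 17.78. Tmem44 gave 18.89 and 17.78, and Ext1, a polymerase of heparan sulfate chains, gave 15.91 and 16.74. Sbno2, a transcriptional co-regulator, had 14.87 and 15.72 with the peak wholly in the UTR and an AP-1 match at the summit, and Rftn2, of the lipid raft protein family raftlin, had 14.87 and 20.99. Itch, an E3 ubiquitin ligase, had 14.87 and 15.72, also wholly inside. In these genes both replicates stood well above the 3′ UTR median.

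Lower in the same group were Arid5b, an ARID DNA-binding protein (13.31 and 24.33), Cxcl9, a chemokine (12.95 and 13.73), and Layn, a hyaluronan receptor (12.95 and 13.73). Nln, a peptidase, had 12.18 and 17.78, and Ogn, a small leucine-rich proteoglycan of connective tissue, had 11.91 and 14.71. Olfr63, an olfactory receptor, Tmem183a and the unmatched UTR peak assigned to Zfp536 completed the 15. An AP-1 match lay at 4 of the 15 summits and a TEAD match at 2, and 9 summits lay in the UTR.

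The 27 exon peaks within the IDR limit had strengths from 11.26 to 16.85 and were led by a non-coding gene. A530053M12Rik had 16.85 and 25.47, and its TSS was 15 bp away. The annotation named exon 1 of its 2 exons, and exon 2, taken by the largest overlap, held 65.1% of the peak. A130050O07Rik, a single-exon TEC gene, held its peak wholly, with 14.87 and 26.58. Gm29346 overlapped a TSS and had 20.57 and 16.74, although its exon held 2.68% of the peak. Gm48957 held its peak wholly, with 14.23 and 15.72.

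The other non-coding and pseudogene hosts within the limit had strengths from 11.26 to 13.73. Gm44956 (14.87 and 13.05), Gm36495 (12.03 and 16.74), Gm49058 (12.03 and 15.72) and Gm31410 (11.55 and 18.83) had the summit in their exon. Gm39473 (18.89 and 12.76), 4930471E19Rik (12.37 and 14.71), Gm11216 (12.03 and 14.71), Gm36033 (15.85 and 11.81), Gm43086 (16.85 and 11.81), AC124973.2 (11.41 and 15.72) and Gm20125 (16.89 and 11.26) had it outside. So did the pseudogenes Gm6893 (16.89 and 13.73) and Gm12799 (14.87 and 11.81).

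Among protein-coding hosts the strongest was Synpo, an actin-associated protein (17.86 and 16.84), on a non-coding exon. Akap7, an anchoring protein of protein kinase A, had 17.86 and 16.74 at chr10:25271331-25272799, where its exon 4 of 8 held 9.33% of the peak. Il1r1, the receptor of interleukin-1, had 18.54 and 16.74, and Plekhm3 had 15.85 and 17.78. These peaks had their summits beside the exon and not in it.

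Ppp1r12b, a myosin phosphatase subunit of muscle, had 15.85 and 13.97 at chr1:134901590-134902754. Its exon 2 of 24 held 11.2% of the peak and also the summit, and the TEAD match printed above lay outside the exon. Map3k5, a stress-activated kinase, had 14.87 and 13.73 at exon 8 of 30. Lrrc8d, a subunit of volume-regulated anion channels, had 13.90 and 13.26, and Vmp1, a membrane protein of autophagy, had 12.95 and 12.76. In each of the last 3 genes the replicates lay close to each other. They lay farther apart at A730049H05Rik, with 18.89 and 11.81, where exon 2 of 5 held 10.9% of the peak.

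Fbn1, which encodes fibrillin-1, the main protein of extracellular microfibrils, had 12.03 and 14.71 at chr2:125301753-125302837. The peak met the last of its 66 exons, which held 20.6% of it, and the summit, with an AP-1 match, lay outside that exon. Of the 27 exon peaks, 14 were within 3 kb of a GENCODE TSS, 9 had their summit in the named exon, and 7 had an AP-1 and 2 a TEAD match at the summit.

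In the 5′ UTR class 1 peak reached that IDR limit, at Rbm6, an RNA-binding protein, with 12.03 and 18.83 (chr9:107833366-107834410). The 5′ UTR part of an exon held 5.65% of it. Mmaa, a protein of vitamin B12 metabolism in mitochondria, had 11.09 and 10.30, and Stxbp6, a regulator of SNARE complexes, 8.31 and 10.39. Mpv17l followed with 8.31 and 8.25. Zbtb20, a zinc finger repressor, held a pair, with 9.06 and 14.71 in one and 8.15 and 7.42 in the other. The summits of both lay in the 5′ UTR part taken for them. Only Macc1 (11.12 and 3.71) shared that feature among the remaining 5′ UTR peaks. Jarid2, a partner of the Polycomb repressive complex, had 12.95 and 5.70.

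At the summits, AP-1 and TEAD motifs were more frequent than in flanks 1000 bp away in exons and 3′ UTRs. AP-1 matches lay at 86 exon summits (15%) and 22 flank windows (3.84%), or 3.91 times as often (adjusted p = 9.83e-10, two-sided exact McNemar test, Benjamini-Hochberg over 6 tests). In 3′ UTR peaks they lay at 29 summits (16.6%) and in 7 flanks (4.0%), or 4.14 times as often (adjusted p = 2.26e-04, exact). TEAD matches lay at 46 exon summits (8.03%) against 15 flanks (2.62%; adjusted p = 1.41e-04, exact) and at 16 3′ UTR summits (9.14%) against 5 flanks (2.86%; adjusted p = 0.0288, exact). The size of these differences moved with the window searched. The AP-1 difference of 12.6 percentage points in 3′ UTRs was 6.29 within 50 bp of the summit and 25.1 within 200 bp, and that of 11.2 in exons was 7.16 and 18, all of which passed. The TEAD difference of 5.41 in exons was 4.19 and 11, which passed, and that of 6.29 in 3′ UTRs was 1.14 within 50 bp, which did not pass (adjusted p = 0.872, exact), and 9.14 within 200 bp, which did. In the stronger part of the list the 3′ UTR differences did not pass (AP-1 6.90 percentage points, adjusted p = 0.420; TEAD 4.60, adjusted p = 0.516; exact). With the first-listed summit alone the TEAD difference in 3′ UTRs did not pass either (4.0 percentage points, adjusted p = 0.251, exact). The 5′ UTR class, with 3 AP-1 summits and 1 TEAD summit, was too small to tell (adjusted p = 0.300 and 1.00, exact).

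Motif shares in the members were close to those in introns, which held AP-1 at 15.7% (14.7% to 16.7%) and TEAD at 7.76% (7.05% to 8.53%) of summits. The intervals of the exon class were 12.3% to 18.2% for AP-1 and 6.07% to 10.5% for TEAD, and those of the 3′ UTR class 11.8% to 22.8% and 5.71% to 14.3%. No class differed from introns in either motif (adjusted p = 0.929 in all 6 exact tests), which does not show that the shares are equal. Against promoter peaks (8.33%), the AP-1 share was 6.68 percentage points higher in exons (adjusted p = 3.40e-05) and 8.24 higher in 3′ UTRs (adjusted p = 0.00238), by Fisher's exact test. GC content in the 100 bp on each side of the summit had a median of 43.3% in each of the 3 classes and in introns, and 48.8% in promoter peaks.

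The share of motif matches that lay inside the annotated region differed between the classes, without a test. Of 29 3′ UTR peaks with an AP-1 match, 22 (75.9%) had it inside the UTR, and of 16 with a TEAD match 12 did (75%). In exon peaks 28 of 86 AP-1 matches (32.6%) and 20 of 46 TEAD matches (43.5%) lay inside the exon, and in 5′ UTR peaks none of 3 and none of 1. The short sequence TTTCAT or TTTCCT, searched on both strands, lay at 46.1% of exon summits (flanks 37.2%), 46.3% of 3′ UTR summits (34.9%) and 60.0% of 5′ UTR summits (44.0%), beside 43.1% of all summits (38.9%); these shares were not tested.

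Genes with several members were few. The matched peaks fell in 700 host genes, of which 635 held 1, 60 held 2 and 5 held 3. In 23 of the 65 genes with several peaks all of them shared 1 exon or UTR, with summits spanning a median of 1097 bp, and in the other 42 the span was 21770 bp in the median. Itpripl2 held 3 peaks in its single 3′ UTR exon (first-listed and second-listed 6.92 and 9.10, 10.23 and 5.67, 5.42 and 4.39). Pairs within 1 3′ UTR also occurred at Sox4 and Maf, both transcription factor genes, and at Zfp451, Zfp503 and Nln.

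Myof, which encodes a ferlin of membrane repair, held 3 peaks at coding exons 2, 3 and 21 of 53. Their values were 4.71 and 3.71, 9.37 and 5.10, and 9.37 and 9.79. Zbtb20 held its 5′ UTR pair and an exon peak (8.44 and 15.72), with summits over 274042 bp. The non-coding genes Gm4117, whose peaks were assigned to Vcan, and Gm47586 held 3 each, with the strongest at 10.23 and 6.92.

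Among protein-coding genes, 384 of 21924 (1.75%) held an exon or UTR peak, and the gene lists below were read beside that share without a test. Of 12 ductus arteriosus regulators chosen from those that the study names, 4 did (33.3%): Edn1, Fbln1, Foxc1 and Gja5. The choice left out Myh11, the smooth muscle myosin heavy chain, which the study also names and which held no exon or UTR peak. The study named several of these genes for their peaks in these samples, so the count is not independent evidence. The peaks were of middling strength, and no global IDR among them was 0.05 or less. Edn1, the vasoconstrictor endothelin-1, had 5.56 and 11.81, with a TEAD match at a summit in its 3′ UTR. Foxc1, a forkhead factor of vessel development, had 8.52 and 6.61 wholly in its 3′ UTR. Gja5, the connexin 40 gene, held 3′ UTR peaks of 5.42 and 5.67 and of 11.12 and 9.98, and the latter, in the UTR of a longer transcript, was assigned to 4930573H18Rik. Fbln1, an elastic fibre glycoprotein, had 6.89 and 6.39 at coding exon 8 of 17, with the summit in the exon.

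Of 44 collagen genes 4 held 5 exon peaks (9.09% of genes), at Col12a1 (8.52 and 9.10 in one, 6.42 and 8.25 in the other), Col28a1 (12.95 and 10.57), Col6a4 (8.52 and 8.25) and Col3a1. The shares of the lists were not adjusted for the number or length of exons. The transcripts hit at Col12a1, Col28a1 and Col6a4 have 66, 35 and 38 exons. The Col3a1 peak, with 15.85 and 7.31, was on a non-coding transcript of this major fibrillar collagen of vessels and had 80.6% of its width in that exon. Of 11 laminins only Lamb1 held one, and of 28 vascular matrix glycoproteins 2 did, Fbn1 and Fbln1. Of 28 SMC contractile and actin cytoskeleton genes, 1 held a member, Ppp1r12b. That list does not cover all actin-associated genes, and Synpo, above, and Zyx and Enah, named after their values were seen, were members outside it.

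Of 520 genes with a zinc finger symbol, 9 (1.73%, beside 1.75% of all genes) held 13 peaks, 8 in 3′ UTRs, 2 in 5′ UTRs and 3 in exons. They included Klf6, a Krüppel-like factor (13.90 and 4.91), Osr1 (4.33 and 5.10), Zfp474 (5.42 and 5.10), Zfp605 (6.21 and 10.89 at a non-coding exon), Zfp608 (3.75 and 14.91) and Gli3, an effector of Hedgehog signalling (4.93 and 6.61 in coding exon 9). Among 15 AP-1 family genes, Maf held a pair in its 3′ UTR (6.15 and 8.25, 5.36 and 5.02) and Fosl2 an exon peak with 19.94 and 9.03. Of 71 genes of histone methyltransferases, demethylases and deacetylases, Hdac9 alone held a member (9.37 and 12.76), at coding exon 14 of 25. Of 91 genes with a Cdh or Pcdh symbol, which leaves out other cadherin-family genes such as the members Dsc2 (11.12 and 6.61) and Dchs2, Pcdhac1 held a pair in the 3′ UTR exon that protocadherin alpha transcripts share. The other lists were short and held no member: SRF and its partners (10 genes), integrins (31), the Notch pathway (18), the TGF-β and BMP pathway (32), TEAD and the Hippo pathway (22) and chosen homeobox and T-box families (99). They do not cover each pathway or family: Lhx9, a LIM-homeobox factor (11.12 and 7.71), and Acvr1c, a receptor of the TGF-β superfamily (7.17 and 6.61), both wholly held by their 3′ UTR, and Hmbox1, with 2 exon peaks, were members off these lists, named after their values were seen.

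**Figure D5:**
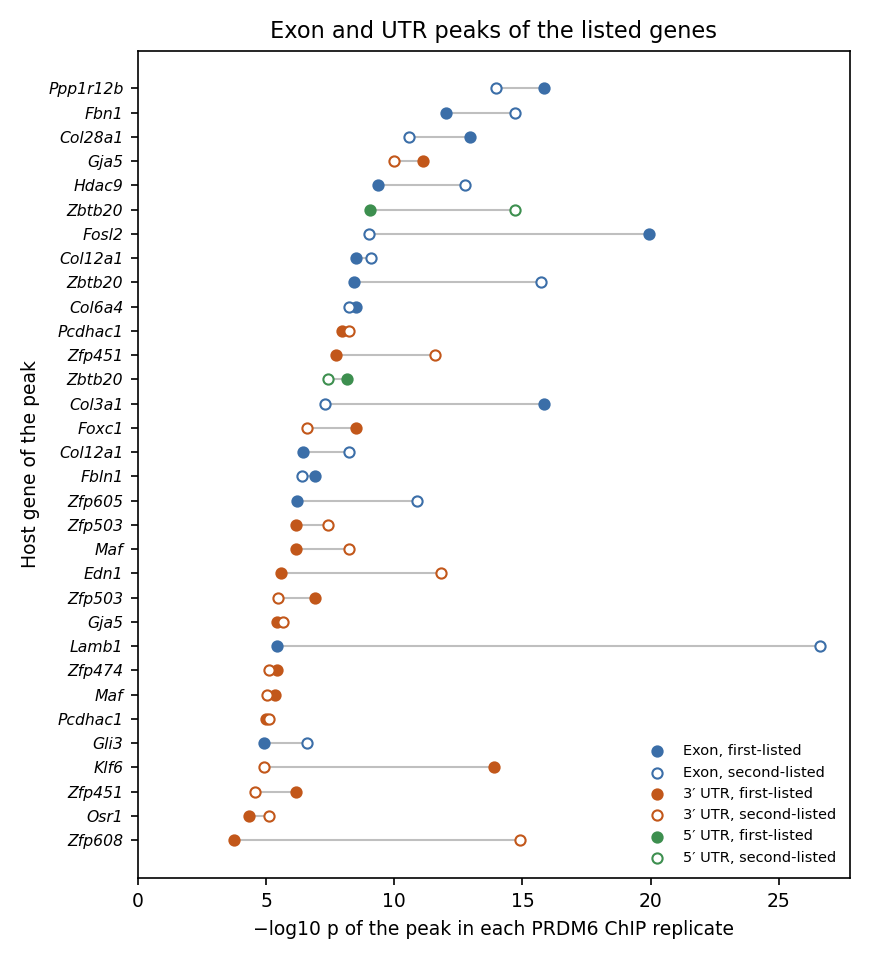
−log10 p in the first-listed (filled) and second-listed (open) PRDM6 ChIP replicate for the 32 exon, 3′ UTR and 5′ UTR peaks of the listed genes, in the order of the lower value, with genes named once per peak. Ppp1r12b and Fbn1 lead, and Lamb1, Zfp608 and Fosl2 have the replicates farthest apart.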

How the data were processed

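According to the authors, reads were aligned to mm10 with BWA, and peaks were called with MACS2 in each ChIP replicate against its Input at p < 0.001. Both replicates were matched by the IDR procedure into 1 list, and versions were not given in the sources used here. The deposited −log10 p-values are those of MACS2, and the deposited score is that of the IDR procedure, in which 540 stands for a global IDR of 0.05. Which replicate number was listed first is not stated. The 3 classes were taken from the authors' annotation. Overlaps used GENCODE M21 and bases the GRCm38 genome of RefSeq, with pysam 0.24.0. Tests ran in SciPy 1.17.1, were tried on simulated data, and had a threshold of 0.05 after adjustment. The naming rule took members within that IDR limit, the strongest of each class, genes with 3 or more members and members on the lists; other genes were named after their values were seen. Both members and lists were chosen with earlier results of these data known. Alternatives covered stronger peaks, each replicate's values alone, other comparison classes, windows of 50 bp and 200 bp, and flanks 3000 bp away.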

Additional observations from a re-analysis of the deposited data

How the results depend on the processing

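No paired analysis was possible because the list holds 1 matched set of peaks and names the replicates only by order. Among 189 alternative values, 161 kept their side of the threshold or stayed within the error of the value reported; among differences that passed in neither setting, 19 changed sign. At a global IDR of at most 0.05 the classes kept 27 exon, 15 3′ UTR and 1 5′ UTR peaks and 2 listed genes; in the stronger part of the list they kept 316, 87 and 12 peaks, and with the summit in a GENCODE exon 261 exon and 10 5′ UTR peaks. The summits of exon peaks lay in a GENCODE exon in 45.5%, in 40.7% at a global IDR of at most 0.05, and in 7.68% when only coding and UTR parts of protein-coding transcripts counted.

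At a global IDR of at most 0.05, with few peaks tested, summits exceeded flanks without passing by 22.2 (AP-1, exon), 20 (AP-1, 3′ UTR), 7.41 (TEAD, exon) and 13.3 percentage points (TEAD, 3′ UTR). In the stronger part of the list the 3′ UTR excess was 6.90 for AP-1 and 4.60 for TEAD, and in windows of 50 bp that for TEAD was 1.14. By single summits the latter ran from 4.0 to 6.86. The exon width difference of 106 bp was 27.0 bp in the stronger part, 45 bp with the summit in an exon and 290 bp at a global IDR of at most 0.05. The exon strength difference of 0.31 passed with the upper quartile as limit (0.31) and against promoter peaks (0.42), ran from 0.00 to 0.53 by single replicates, and was -0.97, without passing, at a global IDR of at most 0.05. Against promoter peaks the exon share with a global IDR of at most 0.05 was 2.39 percentage points higher, and AP-1 was 6.68 (exon) and 8.24 (3′ UTR) higher. The causes were not tested. The excess of reproducible 3′ UTR peaks passed in all 5 alternatives run, 2 of them (members over 3 kb from every TSS and peaks over 600 bp) chosen after seeing the data, with adjusted p-values from 2.05e-04 to 0.0438. Median GC at the second-listed summits of exon peaks was 44.8%. Unknown depth and 25 peaks limit the 5′ UTR class, and tests at a global IDR of at most 0.05 could not be made for it.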
